A study of Homo sapiens with 4 samples.

Results

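The genes examined here encode the nuclear pore and the receptors that carry cargo through it, in SK-MEL-28 cells, an established human melanoma line, carrying an empty vector or an inducible MYC gene. They were picked by gene symbol. These genes, the role groups and the lists below were chosen with earlier results of these data known. The rule took the numbered NUP, KPNA, KPNB, IPO, XPO and TNPO genes together with RAN, RANBP1, RANBP2, RCC1, RANGAP1, CSE1L, NUPL1, NUPL2, TPR, POM121 and AAAS. The rule found 55 genes among the 25268 symbols of the RNA-Seq table. Of these, 52 averaged 1 FPKM or more over the 4 libraries and enter the comparisons (FPKM counts fragments per kilobase of a transcript for every 1000000 fragments mapped). The other 3 were KPNA5, with between 0.255 and 0.367 FPKM, and KPNA7 and NUP210L, both listed at 0 in every library.

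The nuclear pore is a ring of many copies of nucleoporins that spans the nuclear envelope. Outer and inner scaffold rings are anchored to the membrane, and disordered proteins rich in phenylalanine and glycine (FG proteins) fill the channel and let only small molecules or receptor-bound cargo pass. Importins carry proteins with a nuclear localization signal inwards, and exportins carry proteins and some RNAs outwards. The direction is set by the small GTPase RAN, which RCC1 keeps loaded with GTP in the nucleus and which RANGAP1, helped by RANBP1 and RANBP2, switches off in the cytoplasm. Growing cells, which make many ribosomes, send a heavy traffic of ribosomal proteins in and ribosomal subunits out through the pore.

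The study used a vector line, stably transduced with an empty lentiviral pTRIPZ vector, and a MYC-inducible line (the MYC line), transduced with a MYC gene behind a Tet-inducible promoter. Both lines had been selected with geneticin, and whether either is a single clone is not given in the sources used here. Each line was sequenced without doxycycline (Dox) and after 54 h of Dox, which the methods give as 0.5 μg/ml. There was 1 library per condition, so differences cannot be set against a spread between replicates and p-values are left out. The approximate depth, taken from the smallest values in the table, was between 34900000 and 41900000 fragments per library. MYC itself had 58.3, 54.8, 76.5 and 87.1 FPKM, a log2 change with Dox of 0.19 in the MYC line and -0.09 in the vector line. By this measure the MYC line was already higher in MYC before Dox, and the step with Dox was smaller than the step between the untreated lines. The value is 1 per gene symbol and does not separate the introduced MYC gene from the cells' own. By other methods, the paper reports more MYC mRNA in RT-PCR and a higher reporter activity of MYC after Dox in this line. Here and wherever 4 values follow each other, the order is vector line untreated, vector line plus Dox, MYC line untreated, MYC line plus Dox. All 6 melanocyte markers examined (PMEL, MLANA, TYR, DCT, MITF and SOX10) were present, with a summed level between 4400 and 7891 FPKM, lowest in the MYC line with Dox. There 6 of 6 were lower than without Dox, while 46.8% of all genes averaging 1 FPKM or more were higher. In the vector line 4 of the 6 were lower with Dox, with log2 changes from -0.29 for DCT to 0.05 for MITF. DCT changed by -0.43 in the MYC line. Of 7 markers of other cell types, KRT5 was listed at 0 throughout and EPCAM alone reached 1 FPKM, with 2.71 FPKM in the MYC line with Dox. The summed level of those 7 lay between 0.906 and 2.94 FPKM, and the part of either marker list in the results below was not tested.

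MYC binds DNA with MAX at the E-box, of which CACGTG is the canonical form and CACGCG a noncanonical one. Stretches upstream of an annotated start of 6 genes are shown because they carry such a motif and belong to genes at both ends of the response. The genes are RCC1, IPO4 and XPO5, the 3 with the largest rise, RAN and NUP188, which were higher, and NUP50, which was the lowest of all. The stretches come from RefSeq promoter records of GRCh38.p14. Those of IPO4 and RCC1 lie before a start in these records but within the gene spans given further below. Each stretch was found letter for letter at a single place in GRCh37, the build of the table. Each reads 5′ to 3′ on the strand of the gene, with 1 form of the E-box in capitals, the canonical form in all but XPO5, where the capitals mark the noncanonical form as read from the other strand. The stretch of RAN also holds a noncanonical match, at -113 from the start, left in lower case, and RCC1 and NUP50 have noncanonical matches outside the stretches shown. The stretch of RCC1 lies at chr1:28844508-28844593 before the second of its 2 annotated starts, IPO4 at chr14:24658034-24658063 on the minus strand, RAN at chr12:131356469-131356554, NUP188 at chr9:131709861-131709977, XPO5 at chr6:43543776-43543841 on the minus strand and NUP50 at chr22:45559592-45559677 before the first of 2 annotated starts.
RCC1: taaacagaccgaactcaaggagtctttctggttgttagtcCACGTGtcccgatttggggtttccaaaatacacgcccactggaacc
IPO4: tgtcagaacctcCACGTGctgtccctcccc
RAN: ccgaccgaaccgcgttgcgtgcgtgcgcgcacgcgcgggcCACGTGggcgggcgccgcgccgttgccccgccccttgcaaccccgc
NUP188: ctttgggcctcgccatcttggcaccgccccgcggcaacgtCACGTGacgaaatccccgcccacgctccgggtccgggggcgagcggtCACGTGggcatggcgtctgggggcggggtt
XPO5: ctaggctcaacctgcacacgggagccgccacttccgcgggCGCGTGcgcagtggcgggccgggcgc
NUP50: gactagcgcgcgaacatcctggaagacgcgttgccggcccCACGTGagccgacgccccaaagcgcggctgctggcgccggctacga

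With Dox in the MYC line, most nuclear transport genes were modestly higher. Changes are differences of log2(FPKM + 0.1), a scale that slightly understates the change of low genes. The median change of the 52 genes was 0.24, against -0.03 for all 11147 genes tested, and 48 of the 52 were above 0, as were 46.8% of all genes. At least 1.5-fold, 6 rose, namely XPO5, IPO4, RCC1, NUP160, IPO5 and RANBP1, and none fell, where 5.9% of all genes rose and 8.85% fell. By at least 0.32 on the log2 scale, 22 were higher and none lower, beside 16.9% and 21.4% of all genes. RANBP1, at 1.502-fold, lay just inside the 1.5-fold line and CSE1L, at 1.486-fold, just outside it, and the count was 5 or 7 under other scalings of the libraries, depending on these 2 genes. FPKM is relative to all fragments of a library, so a change in total RNA per cell does not show in it, and more mRNA in every cell cannot be told apart from a larger share of cells with a high level.

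The vector line gave the response to Dox without the MYC gene. There the median of the 52 genes was -0.01, against 0.01 for all genes, and the changes ran from -0.17 for NUP35 to 0.21 for NUP210. None of the 52 reached 0.32 in either direction, and 24 were above 0, as were 54.2% of all genes. Past 1.5-fold lay 0.709% of all genes upwards and 0.44% downwards. The changes of the 52 genes had a robust SD of 0.08, and of 0.27 in the MYC line, beside 0.11 and 0.36 over all genes.

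**Figure D1:**
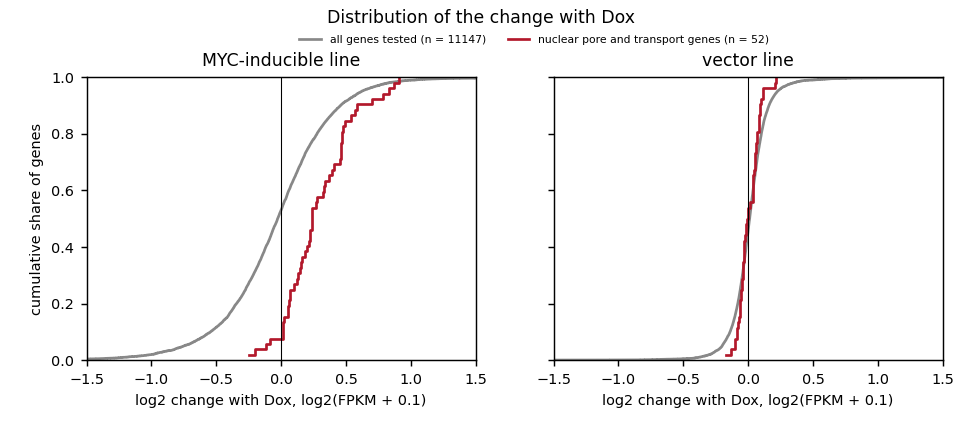
Cumulative share of genes (vertical axis) by log2 change with Dox on log2(FPKM + 0.1) (horizontal axis), for all 11147 genes tested (grey) and the 52 nuclear pore and transport genes (red), 1 library per condition. In the MYC line the red curve lies to the right, with a median of 0.24 against -0.03, while in the vector line both curves are centred near 0.

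The level in the MYC line with Dox was above all 3 other libraries in 48 of the 52 genes, below all 3 in NUP50 and IPO13, and between them in NUP210 and AAAS. Over all genes, 40.2% lay above and 42.9% below. An approximate counting error, which describes how many fragments were sampled but nothing of how cultures vary, was set beside each change. In the MYC line 41 genes were higher by over 2 such errors and 2 lower, beside 33.5% and 39.1% of all genes with an error. In the vector line 10 were higher and 7 lower by that measure, beside 18.9% and 11.9%.

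The Ran cycle was the group with the highest median, 0.53, over only 4 genes. In the MYC line Dox left all 4 higher, beside 48 of the 52 genes and 46.8% of all genes. RANBP2, which also helps RANGAP1, was placed with the cytoplasmic face and changed by 0.12. With RANBP2 counted in the Ran cycle, the median of that group would be the 0.48 of RANGAP1. That is only narrowly above the 0.46 of the export receptors, and the place of the cytoplasmic face would also shift. RCC1, the nuclear exchange factor that loads RAN with GTP, had 33.9, 33.3, 36.1 and 64.1 FPKM. Only the last library stood apart, by 0.83 on the log2 scale (counting error 0.0294), against -0.02 in the vector line. RCC1 lies on chromosome 1 of GRCh37 from 28832455 to 28865812, and its exons overlap those of SNHG3, a noncoding host gene of small nucleolar RNAs on the same strand. SNHG3 had 16.1 FPKM without and 28.6 with Dox in the MYC line, a change of 0.82, so reads of the 2 genes could have been shared.

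RANBP1, a cytoplasmic cofactor that helps RANGAP1 act on RAN, had 368, 360.3, 361 and 543 FPKM, a change of 0.59 with a counting error of 0.0139. It lies on chromosome 22 from 20103461 to 20114878, and its exons overlap TRMT2A on the other strand, which changed by 0.30. RANGAP1, the GTPase-activating protein, had 134, 145, 128 and 178 FPKM. It was higher with Dox in both lines, by 0.48 in the MYC line and by 0.11 in the vector line. RAN itself, on chromosome 12 from 131356582 to 131362223, was the most abundant of all 55 genes, with 796, 827, 809 and 1117 FPKM. The change of RAN was 0.47, with a counting error of 0.0066, and it was 0.05 in the vector line. In RCC1, RANBP1 and RAN the other 3 libraries lay close together and the MYC line with Dox above them, while RANGAP1 varied more among the other 3 and differed by 0.30 between the lines when both had Dox. Summed over the 4 genes, the level was 1331, 1365, 1334 and 1902 FPKM.

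Export receptors came next, with a median change of 0.46, and all 7 were above 0, beside 48 of the 52 genes and 46.8% of all genes. XPO5, which carries precursor microRNAs to the cytoplasm, had 10.6, 10.2, 10.3 and 19.4 FPKM. This was the largest change of the 52 genes, 0.91 with a counting error of 0.0377, against -0.06 in the vector line. XPO5 lies on chromosome 6 from 43490072 to 43543775 and overlaps POLR1C, a subunit of RNA polymerases I and III on the other strand. POLR1C had 32.0 FPKM without and 51.2 with Dox in the MYC line, a change of 0.68, and whether the counting used strand is not given in the sources used here.

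CSE1L, which returns importin alpha to the cytoplasm, had 128, 124, 132 and 196 FPKM, a change of 0.57. XPOT, the exporter of transfer RNA, changed by 0.46, XPO6, the exporter of actin, by 0.47 and XPO4 by 0.39. XPO1, the main exporter of proteins with a leucine-rich signal and of ribosomal subunits, had a change of 0.22, from 47.9 to 55.7 FPKM. The smallest change was that of XPO7, which had 9.23, 8.94, 9.88 and 10.6 FPKM, a change of 0.10. XPO1 and XPO7 were thus the only exportins below the median of the 52 genes. In the vector line the 7 genes lay between -0.06 and 0.09.

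Among the 11 import receptors of the importin beta family the median change was 0.22. Of these, 10 were above 0, beside 48 of the 52 genes and 46.8% of all genes. IPO4, known to import ribosomal proteins and histones, had 20.4, 21.9, 20.8 and 38.0 FPKM, a change of 0.87 with a counting error of 0.0329, against 0.10 in the vector line. It lies on chromosome 14 from 24649425 to 24658075 and overlaps REC8 on the other strand, which had at most 0.0689 FPKM in any library. The exons of IPO4 also overlap those of an annotated gene without a symbol on the same strand, with which reads could have been shared. IPO5, on chromosome 13 from 98605912 to 98676550 and known for importing ribosomal proteins and histones, had 15.8, 15.4, 16.3 and 26.6 FPKM. The change of IPO5 was 0.70 with a counting error of 0.0290, and its pseudogene IPO5P1, which could take some of its reads, had between 0.468 and 0.550 FPKM. For both receptors the other 3 libraries lay close together and the MYC line with Dox above them.

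IPO7, another carrier of ribosomal proteins, had a change of 0.37, from 33.4 to 43.2 FPKM. IPO11 had a change of 0.54 on a low level, 2.01 to 2.96 FPKM, with a counting error of 0.0990, and the change was 0.40 with a pseudocount of 1 FPKM. KPNB1, or importin beta 1, which pairs with importin alpha on the classical route, was the most abundant of the group and changed by 0.19, from 69.9 to 79.5 FPKM. TNPO1, TNPO2 and TNPO3, which import RNA-binding and splicing proteins, changed by 0.22, 0.22 and 0.06, IPO8 by 0.16 and IPO9 by 0.05. IPO13, a receptor that works in both directions, was lower at 12.1, 11.9, 12.05 and 10.5 FPKM, a change of -0.20 with a counting error of 0.0487. The group thus held 2 of the 6 genes that rose together with 1 of the 4 that were below 0.

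The importin alpha adaptors, which bind the classical nuclear localization signal and hand the cargo to KPNB1, moved less, with a median of 0.14 over the 5 genes tested. KPNA2 was by far the most abundant, with 231, 228, 247 and 273 FPKM, a change of 0.14. KPNA3 had the largest change, 0.33, at 7.11, 6.63, 7.49 and 9.46 FPKM. At the other end KPNA1, at 13.02, 12.7, 13.2 and 13.4 FPKM, had a change of 0.02, which turned to -0.02 with all libraries scaled to 1 sum. KPNA6 and KPNA4 had changes of 0.20 and 0.07. None of the adaptors left the range from -0.10 to 0.05 in the vector line.

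Of the pore itself, 25 nucleoporins were tested, and their median change was 0.24. Of the 25, 22 were above 0, beside 46.8% of all genes. At least 1.5-fold higher was 1 gene, beside 5.9% of all genes, a share from which 1 gene cannot be told apart. That gene was NUP160, a subunit of the outer ring, or Y complex, on chromosome 11 from 47799639 to 47870107. It had 4.21, 3.96, 4.58 and 7.96 FPKM, a change of 0.79 with a counting error of 0.0579, against -0.09 in the vector line. The other 5 numbered subunits of the ring had changes from 0.01 for NUP133 to 0.46 for NUP37. SEH1L, AHCTF1 and SEC13 of the same ring, whose symbols the rule does not take, had changes of 0.66, 0.57 and -0.33. NUP133 had 9.45, 8.64, 9.99 and 10.1 FPKM, with a change that became -0.03 with all libraries scaled to 1 sum. Between these lay NUP107 at 0.32, NUP85 at 0.24 and NUP43 at 0.16. The subunits of the ring, which assemble in fixed proportions in the pore, therefore differed in their mRNA change, and the difference between them was not tested.

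The 5 inner ring genes were all above 0, beside 48 of the 52 genes and 46.8% of all genes, with a median of 0.28. NUP188 was the highest, with 8.31, 8.65, 8.40 and 11.9 FPKM, a change of 0.49, and NUP93, the anchor of the inner ring, was the lowest at 44.5, 47.2, 47.2 and 49.4 FPKM, a change of 0.07. NUP155, NUP205 and NUP35 had changes of 0.34, 0.28 and 0.24. In the vector line NUP155 had a change of 0.20 and NUP35 one of -0.17, which were among the widest there. POM121, a membrane-anchored nucleoporin, had 4.74, 4.60, 5.26 and 6.21 FPKM, a change of 0.23. Its near-identical copy POM121C, with which reads could have been shared, had a change of 0.16. NUP210, which spans the nuclear membrane, had 3.55, 4.12, 3.91 and 3.60 FPKM, a change of -0.12 in the MYC line and of 0.21 in the vector line.

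In the central channel, NUP54, NUP98, NUPL1 and NUP62 had changes of 0.27, 0.24, 0.13 and 0.02. NUP54 had 14.9, 14.3, 15.6 and 18.8 FPKM, and NUP62 had 35.1, 37.5, 39.2 and 39.6 FPKM, so that NUP62 differed by no more with Dox than between the untreated lines. With all libraries scaled to 1 sum, NUP62 changed sign, to -0.03. On the cytoplasmic face, NUPL2 had 15.0, 14.9, 14.4 and 19.9 FPKM, a change of 0.46, and AAAS had 20.5, 21.4, 22.6 and 21.3 FPKM, a change of -0.08. NUP88, whose exons overlap RABEP1 and RPAIN on the other strand, had a change of 0.46, while NUP214, its binding partner in the pore, had one of 0.05. RANBP2, a large filament protein with near-identical copies among the RGPD genes, had a change of 0.12, and RGPD5 one of -0.02.

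The nuclear basket projects into the nucleus, and its 3 genes did not move together. NUP50, a cofactor that helps importin alpha release its cargo, had 74.9, 71.5, 67.2 and 56.4 FPKM, a change of -0.25 with a counting error of 0.0181. It lies on chromosome 22 from 45559806 to 45583898, and it was also the gene furthest below 0 between the untreated lines, at -0.16. NUP153, which anchors the basket, had 6.42, 6.15, 6.65 and 8.86 FPKM, a change of 0.41. TPR, the main filament of the basket, had a change of 0.01, which became -0.04 with all libraries scaled to 1 sum. Summed over the 3 genes, the basket was the only 1 of the 10 role groups that was lower with Dox in the MYC line, at 80.1 and 71.6 FPKM, a sum made up mostly of NUP50.

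The levels covered a wide range. By mean FPKM over the 4 libraries, RAN (887 FPKM), RANBP1 (408), KPNA2 (245), RANGAP1 (146) and CSE1L (145) led. These 5 alone averaged 100 FPKM or more, while 29 lay from 10 to under 100 and 18 below 10. Soluble factors of the Ran cycle, an importin alpha and its recycling receptor thus headed the order, and no nucleoporin was among them. Of the 51 pairs of neighbours in this order, 8 had ranges over the 4 libraries that did not overlap, among them RAN and RANBP1, RANBP1 and KPNA2, and CSE1L and KPNB1. RANGAP1 and CSE1L, by contrast, overlapped, and so did most neighbours further down. The lowest of the 52 were XPO4, with 2.52 FPKM, and IPO11, with 2.18. The summed level of all 55 genes was 2490, 2519, 2552 and 3363 FPKM, of which RAN made up between 31.7% and 33.2%. This sum was 0.354%, 0.354%, 0.369% and 0.470% of all FPKM. Level and change were only loosely related over the 52 genes, with a Spearman's rho of 0.20 between mean FPKM and change. It is given as a description since the genes share their libraries. The mean FPKM also includes the MYC line with Dox, so a rise with Dox raises the mean too.

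Setting the MYC-inducible change against the vector change, 8 genes were at least 1.5-fold higher and none lower, beside 5.85% and 9.72% of all genes. They were the same 6 as above, with CSE1L at 0.61 and IPO11 at 0.64. With both lines compared under Dox, these 8 were again at least 1.5-fold higher in the MYC line and none lower, beside 6.5% and 8.62% of all genes. The difference under Dox was 0.99 for NUP160, 0.94 for RCC1, 0.92 for XPO5, 0.79 for IPO4, 0.78 for IPO5, 0.68 for IPO11, 0.66 for CSE1L and 0.59 for RANBP1. These comparisons share the library of the MYC line with Dox, so they do not stand as separate evidence. The untreated lines already differed slightly, with 45 of the 52 genes higher in the MYC line, beside 59.5% of all genes, and a median of 0.08 against 0.02. The widest untreated differences were 0.19 for TNPO3 and 0.18 for KPNB1, both larger than or close to their change with Dox.

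Promoter records, covering 250 bases before and 50 bases after each annotated start, were found for 47 of the 52 genes. KPNA4, KPNB1, NUP43, RANBP1 and XPO7 had none. The canonical E-box CACGTG lay in 9 of the 47 genes (19.1%), namely RCC1, IPO4, NUP188, RAN, IPO7, KPNA3, TNPO2, XPO1 and NUP50, and in 13.2% of 8336 other genes tested. Counted per window, it was in 14.8% of the windows of the 47 genes, in 9.72% of those of the other genes tested and in 7.26% of all 35116 windows in the records. Both strands read the same for this motif. In the MYC line the median change was 0.37 in the 9 genes and 0.24 in the 38 without the motif, and over the other genes tested it was 0.02 with and -0.03 without. NUP188 had 2 copies, the first bases of which were at -77 and -30 from the start, and in RAN the copy was at -102, in IPO4 at -29, in RCC1 at -190 and in NUP50 at -174. As the stretches printed above show, the motif was present in the gene with the lowest change as well as in 2 of the 3 with the highest.

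The noncanonical form CACGCG, searched on both strands as CACGCG and CGCGTG, lay in 13 of the 47 genes (27.7%) and in 23.6% of the other genes tested. Per window the shares were 26.2% for the 47 genes, 17.8% for the other genes tested and 11.4% for all windows in the records. No match of one form overlapped one of the other in these genes. XPO5 had matches at -26 and at -3, the second of which crosses the start, and RAN had 3, at -247, -197 and -113. The median change was 0.39 in the 13 genes and 0.24 in the other 34. NUP160 and IPO5, which rose past 1.5-fold, had neither form in these windows. These matches are letters in a window and no measure of binding.

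**Figure D2:**
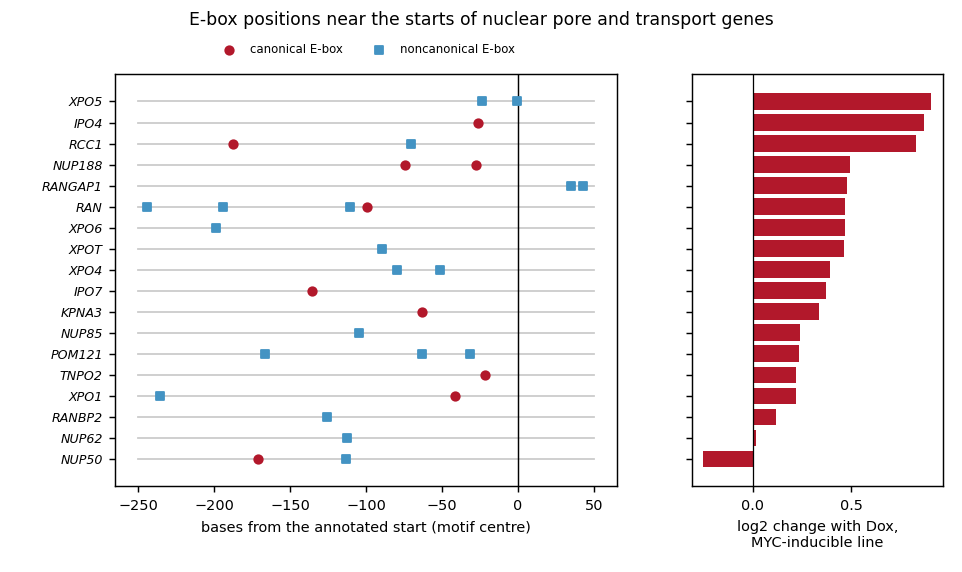
Left, position of the canonical (red circles) and noncanonical (blue squares) E-box from 250 bases before to 50 bases after the annotated start, for the genes with a match (all starts of a gene on 1 line). Right, bars show their log2 change with Dox in the MYC line. Genes with a match run from XPO5 at 0.91 to NUP50 at -0.25.

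A list of 34 further genes of nuclear transport and mRNA export was set beside them, of which 33 were tested. Their median change in the MYC line was 0.22, with 29 above 0, 3 past 1.5-fold upwards and none downwards, beside 46.8%, 5.9% and 8.85% of all genes. The 3 were NDC1, a membrane-anchored nucleoporin (13.4 to 21.4 FPKM, 0.67), SEH1L, an outer ring subunit (13.8 to 21.8 FPKM, 0.66), and THOC5, of the THO complex that couples transcription to mRNA export (42.6 to 66.5 FPKM, 0.64). SEC13, which serves both the outer ring and the COPII vesicle coat, had the lowest change at -0.33, from 102 to 81.2 FPKM. NUTF2, which carries RAN back into the nucleus, had 114, 142, 110 and 152 FPKM, so that it was higher with Dox in both lines, by 0.31 and 0.47. A list of 12 mitotic genes had a median of 0.05 in the MYC line, from -0.23 for TOP2A to 0.52 for CDC20. Of the 12, 8 were above 0 and none was past 1.5-fold upwards or downwards, beside 46.8%, 5.9% and 8.85% of all genes. CDC20 was also higher with Dox in the vector line, by 0.35. The part of proliferation in the changes of the transport genes was not tested.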

How the data were processed

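RNA-Seq was performed with 1 library for each condition. The authors deposited FPKM, a value for each gene symbol. The submitters' processing notes name TopHat2 2.0.14, Cufflinks, hg19 and GRCh37, and the annotation release is not given in the sources used here. Of 27032 rows, 1 named 0 in place of a gene was dropped, and rows of the 609 symbols with several rows were summed (none is among the 55 genes). FPKM values are not counts, so no count model was fitted, and with 1 library per condition no test was made. The change of a gene is the difference of log2(FPKM + 0.1) between 2 libraries, over the 11147 genes averaging 1 FPKM or more, and 1.5-fold is used as a line to count across, not as a test.

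Approximate depth came from 101 genes with very low values and a single annotated transcript, whose values are whole multiples of what 1 fragment is worth. Their estimates for the vector line without Dox had quartiles of 32800000 and 40700000 fragments. Counting errors follow from depth, FPKM and the canonical transcript length in GENCODE release 44 on GRCh37. The calculations were tested on simulated data. Promoters came from RefSeq (GRCh38.p14) and matched 48 of the 55 genes by symbol, 2 of them by a newer symbol.

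The members, role groups and lists were chosen with earlier results of these data known. Values in all 4 libraries were given for genes past 1.5-fold, for those past 0.32 on the log2 scale in the vector line (none), for the highest and lowest change in each role, and for further genes chosen after their values were seen. Other settings tried were a pseudocount of 0.01 or 1, the filter removed or set to 5 FPKM, 3 scalings, symbols with several rows left out, thresholds of 2-fold and of 0.32 on the log2 scale, the mean in place of the median, and the vector line with Dox as reference. Calculations ran in Python 3.11.15 (pandas 2.3.3, numpy 2.4.6), and plots in matplotlib 3.10.9.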

Additional observations from a re-analysis of the deposited data

Results flagged for a closer look

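In 28 of the 52 genes the changes with Dox had opposite signs in the 2 lines, mostly because the vector change was near 0. In 2 of these 28 both changes were larger than 0.11, the robust SD of the difference between the untreated lines over all genes. Neither count was made over all genes, so neither can be read as particular to these genes. NUP210 went from 3.91 to 3.60 FPKM in the MYC line and from 3.55 to 4.12 in the vector line, a difference between the changes of -0.33 with a counting error of 0.0890. NUP35 went from 25.3 to 29.9 FPKM and from 25.1 to 22.3 FPKM, a difference of 0.41 with a counting error of 0.0744. Each line has 1 library per condition, so the difference was not tested.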

How the results depend on the processing

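No paired analysis was possible because there are no replicates to pair. Of the counts and medians over the 52 genes, 84 recalculated values moved by less than 1.5 times (counts) or by less than 0.11 on the log2 scale (medians). Many of the 84 were counts of 0 that stayed 0. Others came from leaving out symbols with several rows, which none of the 52 genes has, so the tally is no measure of stability. The 6 recalculated values that moved further came from the thresholds and the reference. At 2-fold, 0 genes rose in the MYC line and 0 relative to the vector change. At 0.32 on the log2 scale these counts were 22 and 24, with 1 gene (NUP210) lower in the second. Beside the 22 stand 16.9% of all genes. The shares of all genes for the other counts were not calculated, so those counts describe the threshold only. Against the vector line with Dox the median was 0.36 in place of 0.24, and 20 of the 52 genes moved by more than 0.11, for example TNPO3 from 0.06 to 0.28, NUP133 from 0.01 to 0.22 and RANGAP1 from 0.48 to 0.30. The untreated lines differed by a median of 0.08. Of 464 recalculated changes of single genes, 4 changed sign, those of KPNA1, NUP133, NUP62 and TPR after scaling all libraries to 1 sum, which moved the median of all genes to -0.07. Many of the 464 could not move, since the filters and the removal of symbols with several rows leave the change of a single gene as it was. With a filter at 5 FPKM the median was 0.29 over the 4 cytoplasmic face genes left and 0.23 for the 1 membrane-anchored gene left. The count of 6 genes past 1.5-fold was 5 with all libraries scaled to 1 sum and by the upper quartile, which put RANBP1 below the line, and 7 by the median of ratios, which put CSE1L above it. Low genes such as IPO11 and XPO4, with approximately 367 and 982 fragments in the MYC line without Dox, are limited most by depth.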
